A study of Mus musculus with 45 samples.

Results

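Induced myogenic progenitor cells (iMPCs) that were purified by cell sorting for a fluorescent reporter of Pax7 were compared with unsorted, bulk iMPC cultures. The libraries were chosen by their titles, 3 of Pax7-GFP+ iMPCs and 3 of bulk iMPCs, from the 45 mouse RNA-seq libraries of the series, and were paired by replicate number. The series follows embryonic fibroblasts that express MyoD, a muscle transcription factor, from a doxycycline-inducible transgene, with or without the small-molecule mixture that the labels name F/R/C. Every library carries the genotype label Tg:Pax7-nGFP/C57BL6;DBA2, that is, a transgene that marks nuclei of Pax7-expressing cells with GFP on a mixed mouse background. Bulk iMPCs had received doxycycline with F/R/C for 13 days and were held in F/R/C medium, and the series text describes established clones that no longer need doxycycline. For the sorted cells the treatment label is FACS-purified, with no day, passage or medium. Bulk and sorted Pax7-GFP+ myoblasts from skeletal muscle, untreated apart from the sort, served as the parallel pair, and fibroblasts after 10 days of doxycycline, alone or with F/R/C, gave further reference levels. The labels give neither the promoter of the MyoD transgene nor the animals or derivations behind each number, so p-values measure only the spread between these libraries.

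Pax7 is the transcription factor that marks muscle satellite cells, the stem cells of skeletal muscle, and it is shut off as their progeny commit to fusion. Signalling through Notch receptors holds satellite cells in the progenitor state, whereas MyoD and myogenin switch on the genes of the contractile apparatus when cells leave the cell cycle. A culture of iMPCs holds Pax7-expressing progenitors beside differentiated, contracting fibres, so a bulk library mixes the RNA of both.

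Totals of estimated counts were 21.0, 22.3 and 17.8 M reads in sorted replicates 1, 2 and 3 and 36.3, 33.2 and 35.3 M reads in the bulk replicates. Counting error was therefore smaller in the bulk libraries, which says nothing of the spread between replicates. A level of 3 reads, taken as the floor, corresponded to 0.121 to 0.155 CPM (counts per 1 M reads) in sorted libraries and to 0.0807 to 0.0846 CPM in bulk ones, counting error only. The sorted libraries were quantified with another fragment-length setting: the median gap between transcript length and effective length was 180 bases in sorted libraries and 152.8 bases in unsorted ones. The sorted cells also went straight into lysis buffer, whereas bulk cells were harvested with trypsin. The effects of the sort, of the quantification setting and of the harvest cannot be told apart here. The bulk iMPC libraries and bulk myoblast replicate 2 were also the 4 deepest of the series, and 265 genes lay wholly above or below all other libraries in these 4. Of the 264 that were tested, 115 were called higher and 25 lower in sorted iMPCs, beside 10.4% higher and 14.8% lower over all genes tested. The way these genes were picked already sets the bulk iMPC libraries apart from the sorted ones, so their many calls are no finding. The part of depth or batch in them was not tested. Without these genes 3624 calls were made. Replicate 3 was the pair with Y-linked reads in both groups, and replicates 1 and 2 were the pairs with Xist.

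Pax7 (chromosome 4, 139737062 to 139833528, GRCm38) was present at 263, 351 and 305 CPM in sorted replicates 1, 2 and 3 and at 64.5, 39.3 and 81.3 CPM in bulk replicates 1, 2 and 3. All sorted libraries lay above all bulk ones, and the log2 difference was 2.41 (standard error, SE, 0.30). Since cells were sorted on a reporter of this gene, the difference describes the sort and is no finding. In these bulk measurements fewer cells of a type and less RNA per cell cannot be told apart.

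Across the transcriptome, 3794 of 15020 genes tested (25.3%) were called by edgeR's quasi-likelihood test with the replicate number as a block, where a call needs an adjusted p (Benjamini-Hochberg) under 0.05 and a log2 difference of 1 or more in size. Of these, 1564 (10.4% of all tested) were higher and 2230 (14.8%) were lower in sorted cells. The 2 groups of 3 libraries did not overlap for 8643 genes (57.5%), so non-overlap alone is common here. The median log2 difference over all tested genes was -0.01. Of 28 gene lists, those of DNA replication, proliferation and the Notch pathway had 7 or more higher calls and no lower one, and the contractile, calcium-handling and energy genes were nearly all lower. The blocked test called 3331 genes without replicate 1 and 3586 without replicate 2. It called none without replicate 3, where 4850 genes had an unadjusted p under 0.05, and the cause was not tested. Without the block the latter 4 libraries gave 2786 calls, and DESeq2 gave 3210.

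**Figure D1:**
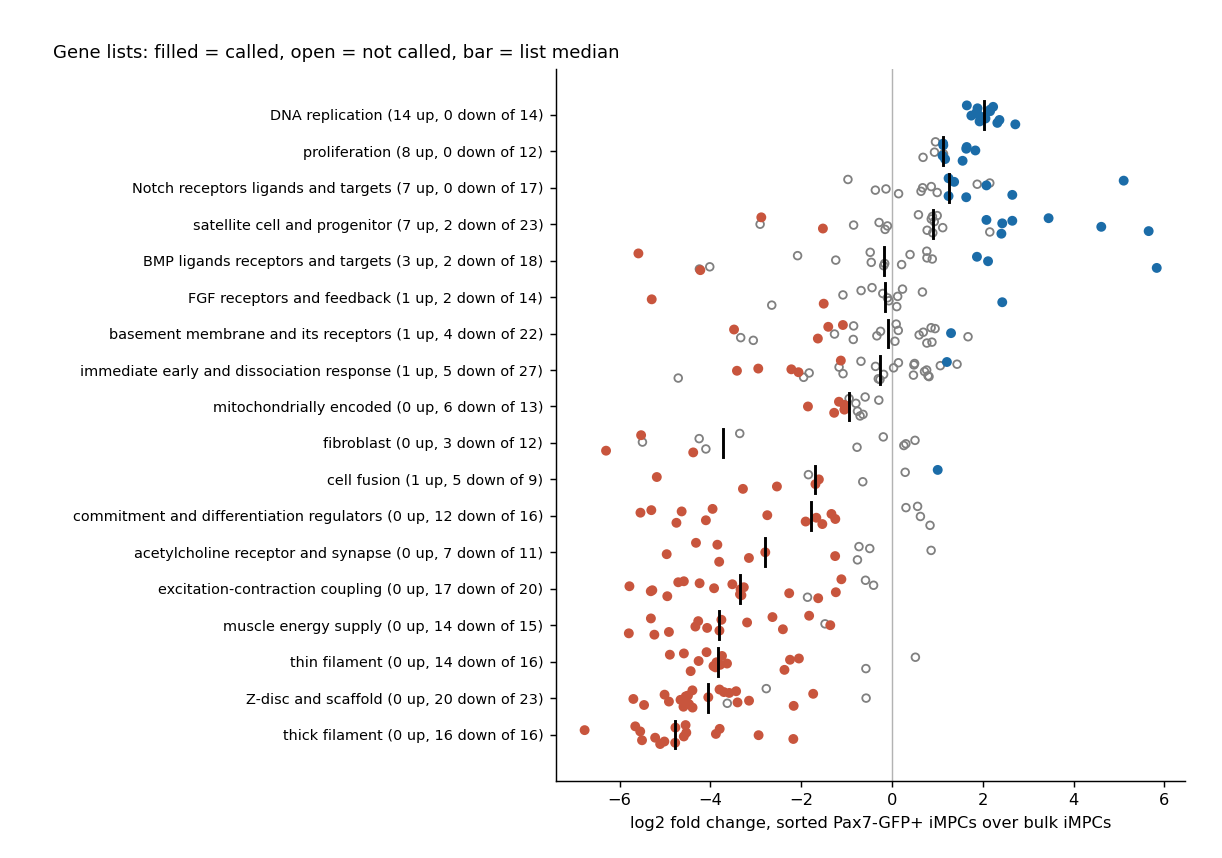
Log2 fold change, sorted over bulk iMPCs, of each tested gene (points) in each gene list (rows), with the counts of genes called higher and lower beside the list's name and the list's median marked. The DNA replication list lies to the right of 0 with a median of 2.04, and the thick filament list lies to the left with a median of -4.77.

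Progenitor genes were not uniformly higher in the sorted cells. Of 24 satellite cell and progenitor genes, 23 were tested, 7 rose and 2 fell, with a list median of 0.90. The genes that rose were Pax7 itself, Chodl, Calcr, Fgfr4, Notch3, Hey1 and Msc, and those that fell were Sdc4 and Ncam1. Notch3 and Hey1 also belong to the Notch list described next. The summed level of the list ran from 4347 to 4850 CPM in sorted libraries and from 2960 to 3800 CPM in bulk libraries. On group means, the gains of Notch3, Fgfr4 and Pax7, the gene sorted on, together exceeded the gap between these sums. The sums therefore show no gain across the list.

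Fgfr4, a fibroblast growth factor receptor (chromosome 13, 55152640 to 55168759), measured 607, 577 and 815 CPM in sorted replicates 1, 2 and 3 against 103, 85.4 and 231 CPM in bulk ones. The lowest sorted library was well above the highest bulk library, and Fgfr4 rose by 2.43 on the log2 scale (SE 0.23, adjusted p = 0.00709, edgeR). Msc, which encodes the transcriptional repressor musculin, was at 39.9, 56.1 and 211 CPM in sorted and 5.26, 2.9 and 25.4 CPM in bulk libraries. Both of its highest libraries were those of replicate 3, and within every pair the sorted library was the higher one (log2 3.45, SE 0.33, adjusted p = 0.00713, edgeR). Calcr, the calcitonin receptor of quiescent satellite cells, was at 1.3, 16.9 and 1.29 CPM in sorted and 0.137, 0.0564 and 0.161 CPM in bulk libraries. Its sorted level rested mostly on replicate 2, and the call (log2 4.61, SE 1.26, adjusted p = 0.0489, edgeR) was lost when effective length was used as an offset. Chodl, a membrane lectin used as a satellite cell marker, was at 3.25, 27 and 28.1 CPM in sorted and 0.219, 0.395 and 0.296 CPM in bulk libraries, a rise of 5.65 (SE 0.67).

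Several progenitor markers did not pass the test or moved the other way. Myf5, a myogenic factor of activated satellite cells, was at 38.6, 27.8 and 65.4 CPM in sorted and 9.74, 22 and 53.9 CPM in bulk libraries. The ranges overlapped, with the highest bulk value above the lower 2 sorted values (log2 0.90, adjusted p = 0.153, edgeR). Cdh15 and Cd82, both surface proteins of satellite cells, had adjusted p-values of 0.0197 and 0.0161 with edgeR but log2 differences of 0.77 and 0.93, under the fold required. Vcam1, an adhesion protein used to sort satellite cells, was at 23.9, 3.43 and 12.7 CPM in sorted and 56.2, 290 and 54.4 CPM in bulk libraries. The spread among the bulk libraries was wide, and Vcam1 was not called (adjusted p = 0.126, edgeR). Ncam1, a cell adhesion molecule that committed muscle cells also carry (chromosome 9, 49502136 to 49798925), was at 92.5, 97.7 and 53.7 CPM in sorted and 809, 515 and 513 CPM in bulk libraries. Its groups were far apart, and it fell by 2.88 on the log2 scale (SE 0.22, adjusted p = 0.00666, edgeR). Sdc4, a heparan sulfate proteoglycan, was at 125, 54.6 and 38.9 CPM in sorted and 251, 164 and 169 CPM in bulk libraries and fell by 1.52.

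Of the 20 Notch genes, 17 were tested, 7 rose and none fell, with a median of 1.25. These were the receptors Notch1, Notch2 and Notch3, the targets Hey1 and Nrarp, and the fucose-modifying enzymes Lfng and Rfng, which alter the receptors' response to ligands. The list's summed level ran from 1935 to 2331 CPM in sorted and from 705 to 1005 CPM in bulk libraries. With GC content as an offset 6 were called and the list median was 0.87.

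Among the receptors, Notch3 (chromosome 17, 32120820 to 32166852) measured 712, 654 and 621 CPM in sorted replicates 1, 2 and 3 and 99.7, 73.2 and 179 CPM in bulk replicates 1, 2 and 3. The 3 sorted libraries were close to each other, and the bulk libraries lay far below them (log2 2.65, SE 0.32, adjusted p = 0.00943, edgeR). Notch1 measured 282, 405 and 392 CPM in sorted and 121, 93.7 and 145 CPM in bulk libraries, again without overlap (log2 1.64, SE 0.21, adjusted p = 0.0105, edgeR). Notch2 measured 162, 130 and 170 CPM in sorted and 58.4, 76.1 and 67.1 CPM in bulk libraries, the smallest rise of the 3 receptors called (log2 1.25, SE 0.19).

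Lfng, the Lunatic fringe glycosyltransferase (chromosome 5, 140607320 to 140615545), was at 58.4, 63.8 and 91.3 CPM in sorted and 1.12, 1.18 and 6.45 CPM in bulk libraries. Its bulk levels were low in replicates 1 and 2 and its rise of 5.10 (SE 0.52, adjusted p = 0.00759, edgeR) was the largest of the Notch list. Hey1, a repressor that Notch signalling induces, was at 137, 117 and 76.6 CPM in sorted and 32.4, 17.8 and 31.1 CPM in bulk libraries. The lowest sorted value, in replicate 3, was still above every bulk value (log2 2.08, SE 0.31, adjusted p = 0.0131, edgeR). Heyl, a related repressor, was at 137, 509 and 347 CPM in sorted and 76.5, 30.1 and 116 CPM in bulk libraries and did not pass (log2 2.15, adjusted p = 0.0787, edgeR), with sorted replicate 1 close to the bulk libraries. Nrarp, a feedback inhibitor of the pathway, was at 8.58, 19 and 23.8 CPM in sorted and 4.05, 6.79 and 9.09 CPM in bulk libraries. The groups overlapped, and its call was lost without the replicate block. Rfng, another fringe enzyme, had a log2 difference of 1.25, and its call was lost with GC content as an offset (0.82). Of the ligands, Dll1 was at 45.8, 58.3 and 73.4 CPM in sorted and 30.2, 21.9 and 41.3 CPM in bulk libraries. That difference lay just under the required fold, and Jag1 and Jag2 stood at 0.64 and -0.37, so none of the 3 ligands tested was called by edgeR.

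**Figure D2:**
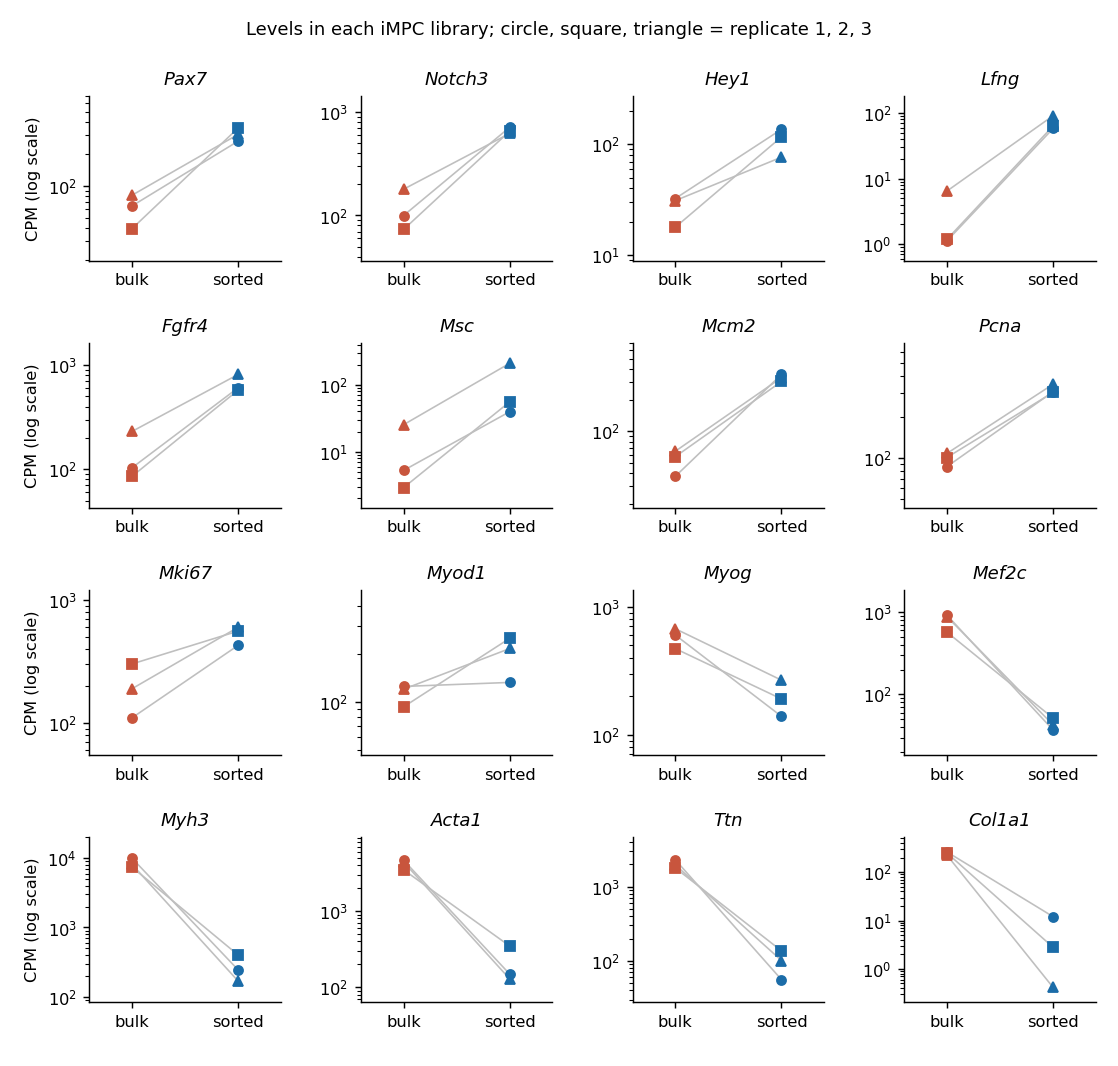
CPM on a log axis in bulk (left) and sorted (right) iMPC libraries for genes described in the text, with symbols for replicates 1, 2 and 3 and lines joining equal numbers. Notch3, Fgfr4 and Mcm2 have all sorted points above all bulk points, and Mef2c, Myh3 and Col1a1 have all sorted points below.

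All 14 DNA replication genes rose in sorted cells, by 1.65 to 2.72 on the log2 scale, with a median of 2.04. Their summed level ran from 2587 to 2933 CPM in sorted libraries and from 519 to 829 CPM in bulk libraries. All 14 were also called with GC content or effective length as an offset, without the block, in a fit of all 45 libraries and with DESeq2. Mcm2, a subunit of the helicase that opens replication origins (chromosome 6, 88883474 to 88898780), was at 353, 302 and 329 CPM in sorted and 37, 57.1 and 64.4 CPM in bulk libraries. The sorted libraries were tightly grouped, and the rise was 2.72 (SE 0.24, adjusted p = 0.0069, edgeR). Pcna, the sliding clamp of the replication fork, was at 306, 303 and 348 CPM in sorted and 86.5, 101 and 108 CPM in bulk libraries. Both groups were narrow (log2 1.75, SE 0.12, adjusted p = 0.00666, edgeR). Ccne1, the cyclin of the G1-to-S transition, was at 318, 316 and 414 CPM in sorted and 69.3, 48.2 and 134 CPM in bulk libraries, a rise of 2.23 (SE 0.25). Cdc6, which loads the helicase onto origins, was at 48.7, 43.1 and 54.6 CPM in sorted and 7.94, 13 and 13.8 CPM in bulk libraries, a rise of 2.16 (SE 0.23). The other helicase subunits rose too, by 2.32 (Mcm3), 1.93 (Mcm4), 2.37 (Mcm5), 2.06 (Mcm6) and 2.01 (Mcm7). The remaining members were Ccne2 (1.65), the nucleotide-making enzyme subunit Rrm2 (1.89) and the helicase partners Gins1 (1.86), Gins2 (2.16) and Cdc45 (1.88).

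Since these genes moved together, 3 of their promoters are shown, chosen because they hold the letters searched for. The 250 bases before the RefSeq transcription start (assembly GRCm38.p6) are printed 5′ to 3′ along the gene's own strand for Cdc6, at chr11:98907901-98908150 (plus strand), Mcm5, at chr8:75109259-75109508 (plus strand), and Mcm6, at chr1:128359706-128359955 (minus strand). Capitals mark the letters TTTGGCGC or TTTCCCGC on either strand, forms of the site bound by E2F, the transcription factor family of S-phase genes.
Cdc6: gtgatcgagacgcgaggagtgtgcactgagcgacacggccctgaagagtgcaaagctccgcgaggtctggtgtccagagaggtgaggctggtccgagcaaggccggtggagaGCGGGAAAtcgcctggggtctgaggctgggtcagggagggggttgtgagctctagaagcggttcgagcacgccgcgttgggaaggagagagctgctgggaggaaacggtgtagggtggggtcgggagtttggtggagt
Mcm5: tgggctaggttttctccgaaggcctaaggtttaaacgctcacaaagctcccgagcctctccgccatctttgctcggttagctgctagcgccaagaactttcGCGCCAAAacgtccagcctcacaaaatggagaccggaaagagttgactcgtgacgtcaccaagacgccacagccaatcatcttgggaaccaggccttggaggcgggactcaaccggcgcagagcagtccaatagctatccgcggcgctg
Mcm6: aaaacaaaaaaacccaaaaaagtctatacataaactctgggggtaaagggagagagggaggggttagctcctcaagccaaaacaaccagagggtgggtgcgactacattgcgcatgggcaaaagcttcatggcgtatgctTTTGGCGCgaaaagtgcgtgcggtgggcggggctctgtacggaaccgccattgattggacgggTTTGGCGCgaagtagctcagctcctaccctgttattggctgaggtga
These letters occurred in 5 of the 11 RefSeq windows found for the list, each running from 250 bases before the start to 50 after it and belonging to 10 genes. They occurred in 1.56% of the 32851 mouse windows of that kind. The windows of Mcm3 and Mcm7 also held them, and none of the 9 windows found for the proliferation list did. With so few windows and letters this rare, that absence sets no contrast between the lists. A match describes letters in a window and not a site in use.

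The proliferation list is made of genes of mitosis. Of its 12 genes, 8 rose and none fell, with log2 differences of 0.68 to 1.84 and a median of 1.13, and the summed level ran from 2296 to 2870 CPM in sorted and from 745 to 1576 CPM in bulk libraries. The count was 3 in the fit of all 45 libraries, 3 without replicate 1, 12 without replicate 2 and 2 without replicate 3 and the block. Mki67, a marker of cycling cells, was at 429, 561 and 602 CPM in sorted and 110, 303 and 190 CPM in bulk libraries. Bulk replicate 2 was the highest of the bulk libraries yet below every sorted one (log2 1.56, SE 0.25, adjusted p = 0.0153, edgeR). Ccnb1, the cyclin of mitotic entry, was at 152, 125 and 188 CPM in sorted and 62.4, 167 and 94.2 CPM in bulk libraries. Here bulk replicate 2 lay within the sorted range, and the gene was not called (adjusted p = 0.222, edgeR).

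Of 10 CDK inhibitors and pocket proteins, which restrain the cell cycle, 3 fell (Cdkn1a, Cdkn2b and Rb1) and 1 rose (Rbl1), with a median of 0.07. Cdkn1a encodes p21, which is induced as myoblasts leave the cycle (chromosome 17, 29090976 to 29100727). The gene, which the list of differentiation regulators also holds, was at 176, 293 and 189 CPM in sorted and 898, 660 and 583 CPM in bulk libraries and fell by 1.67 (SE 0.26, adjusted p = 0.0143, edgeR). Rb1, the retinoblastoma protein, was at 27.1, 39.9 and 56.8 CPM in sorted and 164, 119 and 184 CPM in bulk libraries, without overlap, whereas its relative Rbl1 was at 49.6, 54.5 and 56.7 CPM in sorted and 22.1, 32.2 and 23.5 CPM in bulk libraries. The 2 pocket proteins thus had opposite calls, at -1.90 and 1.12. Cdkn1c, which encodes p57, was at 468, 977 and 1922 CPM in sorted and 704, 470 and 827 CPM in bulk libraries, with overlapping ranges, and was not called (log2 0.63, adjusted p = 0.285, edgeR).

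Regulators of commitment and differentiation were lower in sorted cells: of 16 genes, 12 fell and none rose, with a median of -1.78. Myod1 had the highest log2 difference of the list, yet it measured 132, 250 and 216 CPM in sorted and 125, 92.9 and 120 CPM in bulk libraries and was not called (log2 0.84, SE 0.28, adjusted p = 0.0803, edgeR). Reads of the MyoD transgene and of the resident gene were not separated here. Myog, which encodes myogenin (chromosome 1, 134289989 to 134292548), was at 139, 190 and 266 CPM in sorted and 601, 471 and 673 CPM in bulk libraries. The gene remained well above the floor in every sorted library, and it fell by 1.53 (SE 0.21, adjusted p = 0.0113, edgeR). Myf6, a myogenic factor of differentiated fibres, was at 0.823, 5.29 and 3 CPM in sorted and 77.3, 70.3 and 66.9 CPM in bulk libraries, a fall of 4.75. Mef2c, a partner of the myogenic factors (chromosome 13, 83504034 to 83667080), was at 37, 51.6 and 42.7 CPM in sorted and 913, 568 and 876 CPM in bulk libraries. Both groups were narrow beside the gap between them (log2 -4.10, SE 0.29, adjusted p = 0.00666, edgeR). Its relatives Mef2a and Mef2d fell by less, 1.90 and 1.25.

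Of 13 genes of cell fusion, 9 were tested, 5 fell and 1 rose, with a median of -1.68. Mymk, the myomaker protein that fusion requires, was at 32.6, 56.1 and 31.4 CPM in sorted and 520, 350 and 324 CPM in bulk libraries and fell by 3.28. Mymx, its partner myomixer, fell by 2.53. Dysf, the membrane-repair protein dysferlin, was at 4.9, 6.67 and 4.55 CPM in sorted and 218, 180 and 202 CPM in bulk libraries, and its fall of 5.18 was the largest of the list. Dock1, an activator of Rac in fusing cells, was the gene that rose, at 104, 115 and 101 CPM in sorted and 49.6, 65.3 and 50.9 CPM in bulk libraries. Its rise of 1.01 was at the edge of the fold required, and the call was lost in several alternatives, DESeq2 and the fit without a block among them.

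Genes of the contractile apparatus were far lower in sorted cells, and the thick filament list had the lowest median of the 28 lists. All 16 thick filament genes tested fell, with a median of -4.77, and their summed level ran from 720 to 1498 CPM in sorted and from 24311 to 32886 CPM in bulk libraries. Of 16 thin filament genes 14 fell (median -3.82), of 23 genes of the Z-disc and its scaffold 20 fell (median -4.05), and none rose. Reads of near-identical family members, such as the myosin heavy chains and the actins, were partly divided between genes by the quantification, so their single values are less certain than these sums.

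Myh3, the embryonic myosin heavy chain (chromosome 11, 67078300 to 67102291), was at 244, 400 and 168 CPM in sorted and 10006, 7447 and 8144 CPM in bulk libraries. Every sorted library lay far under every bulk one, with reads of the gene in each, and it fell by 5.01 (SE 0.37, adjusted p = 0.00666, edgeR). Myh8, the perinatal form, was at 116, 244 and 159 CPM in sorted and 7331, 4779.9 and 7275 CPM in bulk libraries and fell by 5.22. Myh7, the slow form, was at 18.7, 32.7 and 22.2 CPM in sorted and 100, 121 and 115 CPM in bulk libraries, a smaller fall of 2.17. Ttn, the giant spring protein titin (chromosome 2, 76703980 to 76982547), was at 55.9, 136 and 101 CPM in sorted and 2298, 1785 and 1958 CPM in bulk libraries. No library of one group came near the other, and Ttn fell by 4.39 (SE 0.39, adjusted p = 0.00685, edgeR). Acta1, skeletal actin (chromosome 8, 123891769 to 123894751), was at 148, 346 and 128 CPM in sorted and 4652, 3483 and 4404 CPM in bulk libraries, and Actc1, the cardiac actin of developing muscle, was at 514, 696 and 1479 CPM in sorted and 5787, 3327 and 4252 CPM in bulk libraries. Both fell, Acta1 by 4.43 (SE 0.47) and Actc1 by 2.37 (SE 0.43). Des, the intermediate filament desmin that myoblasts already make, was at 1101, 700 and 504 CPM in sorted and 3088, 2525 and 2044 CPM in bulk libraries and fell by 1.74. Genes of the lists that were not called were Tnnt1, at 475, 201 and 440 CPM in sorted and 625, 492 and 506 CPM in bulk libraries, Tpm3 (log2 0.52), Flnc (-0.57), Myoz3 (-3.63) and Mylk2 (-2.77).

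Promoters of 2 of these genes are shown, chosen because they hold the E-box CAGCTG, a site form bound by MyoD and myogenin. The 250 bases before the RefSeq start (GRCm38.p6) are given for Acta1, at chr8:123894776-123895025 (minus strand), and for Mylpf, the fast regulatory light chain, at chr7:127211358-127211607 (plus strand), with the E-box in capitals. The E-box reads the same on both strands.
Acta1: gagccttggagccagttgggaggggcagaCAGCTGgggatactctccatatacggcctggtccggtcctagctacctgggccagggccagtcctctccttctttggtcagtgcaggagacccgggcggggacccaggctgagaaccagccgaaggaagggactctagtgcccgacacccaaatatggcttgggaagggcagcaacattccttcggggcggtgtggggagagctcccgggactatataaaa
Mylpf: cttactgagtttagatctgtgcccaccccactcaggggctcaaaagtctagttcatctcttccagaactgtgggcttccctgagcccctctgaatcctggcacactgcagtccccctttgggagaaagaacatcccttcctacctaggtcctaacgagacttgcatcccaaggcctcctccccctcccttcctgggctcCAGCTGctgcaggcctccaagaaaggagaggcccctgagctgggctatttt
Windows from 250 bases before to 50 after the start held CAGCTG in 7 of 18 thick filament windows (38.9%), 7 of 16 thin filament windows (43.8%) and 10 of 18 muscle energy windows (55.6%), against 16.3% of all mouse windows and 2 of 11 for DNA replication (18.2%). A form of the MEF2 site, searched in the same windows, was in 3.69% of all windows, in 0 of 18 thick filament and 0 of 16 thin filament windows and in 1 of 18 energy windows. Mylpf itself was at 75.6, 161 and 73.5 CPM in sorted and 2869, 2149 and 1978 CPM in bulk libraries, a fall of 4.53 (SE 0.37).

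Genes that couple excitation to contraction followed the filaments: of 20, 17 fell and none rose, with a median of -3.34. Casq1, the calcium store protein of the sarcoplasmic reticulum, was at 22.8, 48.2 and 12.4 CPM in sorted and 1131, 1012 and 830 CPM in bulk libraries and fell by 5.31. Cacna1s, the voltage sensor of the transverse tubule, was at 7.28, 15.1 and 5.79 CPM in sorted and 334, 247 and 255 CPM in bulk libraries and fell by 4.95. The release channel Ryr1 moved less, at 154, 193 and 203 CPM in sorted and 762, 462 and 560 CPM in bulk libraries, a fall of 1.62. Of 11 genes of the acetylcholine receptor and the synapse 7 fell and none rose (median -2.79). Chrna1, the ligand-binding receptor subunit, was at 24.8, 74.7 and 37.5 CPM in sorted and 747, 622 and 465 CPM in bulk libraries, and the fetal subunit Chrng fell by 3.15. Rapsn, which clusters the receptor, was not called (log2 0.86). Of 15 genes of muscle energy supply 14 fell and none rose (median -3.80). Ckm, muscle creatine kinase, was at 1.52, 5.05 and 2.38 CPM in sorted and 128, 101 and 91.8 CPM in bulk libraries. Every sorted value was far under every bulk value, and Ckm fell by 5.23, with Ckmt2, its mitochondrial relative, at -5.80 and Mb, myoglobin, at -4.91.

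Most tested markers of other cell types were not called. Of 12 fibroblast genes 3 fell (Thy1, Col1a1 and Lum) and none rose. This share is near the 25.3% called in either direction over all genes tested and above the 14.8% called lower. The 12 genes had a median of -3.73, beside -0.01 over all genes tested. Their summed level ran from 1435 to 2934 CPM in sorted and from 2883 to 4666 CPM in bulk libraries, against 14005 to 30529 CPM in fibroblasts after 10 days of MyoD alone. Col1a1, the main fibrillar collagen chain (chromosome 11, 94936224 to 94953042), was at 12, 2.79 and 0.413 CPM in sorted and 264, 251 and 227 CPM in bulk libraries. The bulk libraries were alike and the sorted ones differed widely, all of them far lower (log2 -6.30, SE 1.00, adjusted p = 0.0148, edgeR). Thy1, a surface protein of fibroblasts, was at 22.4, 4.57 and 2.33 CPM in sorted and 116, 126 and 171 CPM in bulk libraries, and Lum, lumican, was at 0.217, 0 and 0.207 CPM in sorted and 10.2, 3.75 and 4.54 CPM in bulk libraries, so it lay near the floor in sorted cells. Fn1, fibronectin, was at 1439, 693 and 695 CPM in sorted and 782, 910 and 627 CPM in bulk libraries, and Col3a1 was at 940, 939 and 329 CPM in sorted and 1235, 1296 and 1009 CPM in bulk libraries. These 2 genes made up most of the sorted cells' summed level and neither was called. Pdgfra, a receptor of mesenchymal cells, was at 21.5, 1.09 and 0.0517 CPM in sorted and 44.3, 508 and 13.1 CPM in bulk libraries, and Dcn, decorin, was at 32.2, 0.97 and 2.17 CPM in sorted and 23.5, 511 and 19.5 CPM in bulk libraries. Bulk replicate 2 stood far above the other bulk libraries in both, and neither gene passed (adjusted p = 0.122 and 0.307, edgeR). The number of fibroblast genes called lower was 6 without replicate 1, 6 with DESeq2 and 7 in the fit of all 45 libraries. The part of the fibroblast transcripts in the differences of other lists was not tested.

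The smooth muscle and pericyte list had a median of -1.77. None of its 8 genes was called by edgeR, 3 had an unadjusted p under 0.05, and DESeq2 and the fit of all 45 libraries each called 4 lower. Its summed level ran from 183 to 813 CPM in sorted and from 548 to 740 CPM in bulk libraries. Of 8 endothelial genes 4 were tested and none was called, with none at an unadjusted p under 0.05 and none by DESeq2. Blood and immune genes had 2 of 10 tested and 1 lower call (Itgam), adipocyte genes 1 of 6 tested and called lower (Pparg), epithelial genes 2 of 8 tested and 1 lower call (Cdh1, the E-cadherin gene, with 2 reads in all sorted and 109 in all bulk libraries, a ratio of levels of 33.5 with a counting interval of 9.06 to 280.3), and neural genes 5 of 10 tested and 1 higher call (Map2).

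The BMP, FGF and Wnt lists had shares of calls near the 25.3% of all genes tested. Of 21 BMP genes 18 were tested, 3 rose (Bmp7, Smad6 and Id3) and 2 fell (Bmp2 and Grem1), with a median of -0.17, and DESeq2 called 5 lower. Id3, a BMP target that blocks myogenic factors, was at 143, 208 and 120 CPM in sorted and 44.4, 37.1 and 48.8 CPM in bulk libraries, without overlap (log2 1.87), and Smad6, a feedback inhibitor, rose by 2.12. Bmp7, a ligand (chromosome 2, 172868012 to 172940321), was at 11.9, 1.37 and 39.9 CPM in sorted and 0.301, 0.113 and 0.161 CPM in bulk libraries. It was close to the floor in bulk libraries and uneven among sorted ones (log2 5.83, SE 0.97, adjusted p = 0.016, edgeR). Grem1, a secreted BMP antagonist, was at 19.1, 1.17 and 0.103 CPM in sorted and 122, 308 and 17.1 CPM in bulk libraries. Its ranges overlapped, with the lowest bulk library under the highest sorted one, and it fell by 5.58 (adjusted p = 0.0405, edgeR).

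Of 14 FGF genes, 1 rose (Fgfr4) and 2 fell (Fgfr3 and Fgf7), with a median of -0.15, and DESeq2 called 4 lower. Of 20 Wnt genes 13 were tested, 1 rose (Sfrp2) and 2 fell (Dkk3 and Sfrp1), with a median of -0.12, and DESeq2 called 4 in each direction. Sfrp2, a secreted Wnt modulator, was at 9.71, 74.3 and 32 CPM in sorted and 1.09, 8.01 and 1.83 CPM in bulk libraries, higher in the sorted member of each pair (log2 3.55). Of 11 genes of the myostatin, activin and follistatin group, 1 rose (Acvr2b) and 4 fell (Mstn, Inha, Fstl3 and Acvr1b), with a median of -1.75. DESeq2 called 7 lower, as did edgeR without replicate 1. Mstn, the muscle-made inhibitor of muscle growth, was at 63.9, 19.4 and 20.4 CPM in sorted and 381, 267 and 287 CPM in bulk libraries and fell by 3.34. Acvr2b, a receptor of myostatin, was at 12.8, 8.89 and 15.7 CPM in sorted and 3.28, 2.06 and 4.62 CPM in bulk libraries and rose by 2.00. Its call was opposite to that of Mstn, whereas Acvr1b, another receptor gene of the group, fell as Mstn did. Of 22 genes of the basement membrane and its receptors, 1 rose (Lama5) and 4 fell (Col6a2, Nid1, Itga6 and Itgb1), with a median of -0.09. This share is near the 25.3% called over all genes tested. Lama5 (0.89) and Itgb1 (-0.94) lost their calls with GC content as an offset, where 5 genes of the list were lower and none higher. With effective length as an offset 8 genes of the list were lower and none higher, with a median of -0.45.

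The genes with the largest changes included several outside these lists. Nnat, the imprinted neuronatin gene (chromosome 2, 157560078 to 157562522), was at 711, 635 and 524 CPM in sorted and 20.1, 30.5 and 44.4 CPM in bulk libraries. It combined a high level with a narrow spread (log2 4.41, SE 0.38, adjusted p = 0.00671, edgeR). Adcyap1r1, a receptor of the neuropeptide PACAP, was at 92, 146 and 178 CPM in sorted and 2.27, 0.846 and 15.5 CPM in bulk libraries, a rise of 5.37 (SE 0.90). Esx1, an X-linked homeobox gene, was at 64, 17.3 and 47.8 CPM in sorted and 0.328, 2.45 and 3.25 CPM in bulk libraries, a rise of 4.52. Sncaip (4.49), Rragb (4.37) and CAAA01147332.1 (5.34), a gene on an unplaced scaffold and in the set that sets the 4 deepest libraries apart, completed the top 10 with Bmp7, Chodl, Lfng and Calcr. At the low end, Cpxm2 had 1 read in all sorted and 748 in all bulk libraries (ratio of levels 460, 95% counting interval 82.3 to 18198). Tnn, the matrix protein tenascin N, had 1 against 594 reads (365, 65.3 to 14456), and Gabrd, a GABA receptor subunit, had 2 against 697 (214, 59.1 to 1774). Igfn1 (-7.34), Ip6k3 (-7.10), Prl2c2 (-7.05), Pdgfd (-6.98), Mybpc2 (-6.77), Smoc2 (-6.73) and Ccl7 (-6.73) were the other 7. Mybpc2 encodes a myosin-binding protein of fast muscle and Ccl7 a chemokine.

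Of 27 immediate early and dissociation-response genes, 1 rose (Socs3) and 5 fell (Atf3, Ier3, Dusp1, Nr4a1 and Klf6), with a median of -0.26, beside 10.4% higher and 14.8% lower over all genes. The list's summed level nevertheless was higher in sorted libraries, at 4235 to 4599 CPM against 3640 to 3892 CPM in bulk ones, without overlap. The GC offset left 4 lower calls and none higher, and DESeq2 called 9 lower and 3 higher. Base composition moved with the difference between the groups. Over 15010 genes with a GC value, the decile with the lowest GC content (median 40.1%) had a median log2 difference of -0.16, with 3.66% called higher and 12.6% lower. The decile with the highest GC content (median 59.4%) had a median of 0.50, with 25.5% called higher and 11.5% lower. The GC offset was fitted per library to the GC relation of these same genes. The flat medians it gave these deciles, 0.04 and 0.06, therefore follow from its construction. With the offset 3709 genes were called, 88.6% of the calls were kept and none changed sign. The DNA replication list had a median GC content of 48.8% and the thick filament list 52.6%, and their counts were the same with the offset. Whether the GC relation comes from the sort, the library or the quantification setting was not tested.

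**Figure D3:**
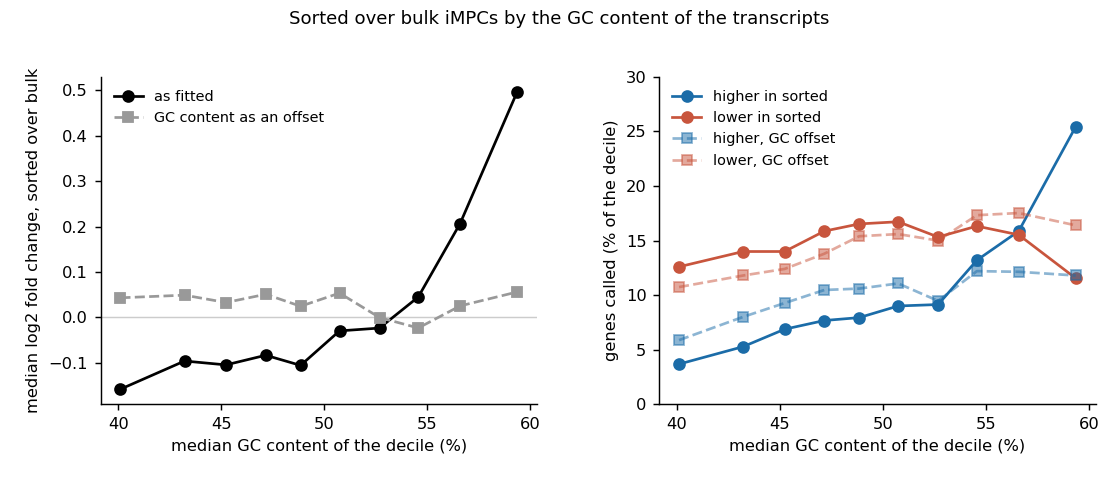
Genes in deciles ordered by GC content (x axis, median percent): median log2 fold change of sorted over bulk iMPCs with and without GC content as an offset (left), and percent of each decile called higher or lower (right). The reported medians rise from -0.16 to 0.50. Those with the offset stay between -0.02 and 0.06, which follows from fitting the offset to these same genes.

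Of 13 mitochondrially encoded genes 6 fell (mt-Nd3, mt-Nd4l, mt-Nd5, mt-Nd6, mt-Co1 and mt-Co3) and none rose, with a median of -0.94. Their summed level ran from 20903 to 28690 CPM in sorted and from 38001 to 55690 CPM in bulk libraries. mt-Co1, a subunit of cytochrome c oxidase, was at 5359.6, 7750.5 and 7527 CPM in sorted and 16619.9, 11641 and 15931 CPM in bulk libraries. Its groups did not overlap (log2 -1.05), but with GC content as an offset it stood at -0.86 and 1 gene of the list, mt-Nd6, was called. With effective length as an offset 1 gene was called too, and the list median was -0.41. Without replicate 1 the count was also 1, and without replicate 2 it was 8.

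Sorted and bulk myoblasts carry the same difference in fragment-length setting, so the sorting effect was compared between iMPCs and myoblasts in a fit of these 12 libraries without a block. Depth is not matched in this way. All bulk iMPC libraries, but only replicate 2 of the bulk myoblasts, belong to the deepest libraries described above. A depth or batch effect therefore need not cancel in the difference, and its part in the calls was not tested. The difference of the effects was called for 1679 of 15825 genes (10.6%), 810 positive (5.12%) and 869 negative (5.49%). In that fit 3794 genes (24.0%) were called in iMPCs and none in myoblasts by edgeR, where 2465 had an unadjusted p under 0.05 and the smallest adjusted p was 0.0545. The bulk myoblast libraries were far apart in differentiation, with Myh3 from 376 to 13500 CPM, and leaving out single libraries gave 4 calls (without bulk iMPC replicate 1) to 2508 calls (without bulk myoblast replicate 2) for the difference. With the replicate number as a block within each cell type 1 gene was called, 4021 had an unadjusted p under 0.05, and DESeq2 called 3138, so the count is loosely determined.

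Calls of the difference given here come from the fit without a block, and with the block within each cell type 1 gene was called in all. Among the lists, 8 of the 14 DNA replication genes had a called positive difference, and their median sorting effect in myoblasts was -0.23. Their summed level was 357 to 1208 CPM in sorted and 698 to 1290 CPM in bulk myoblasts, under every sorted iMPC library. Thick filament genes had a median of -1.88 in myoblasts and none of them a called difference. Notch3 was at 44.4 to 176 CPM in sorted myoblasts and 49.6 to 345 CPM in bulk ones, also under every sorted iMPC library. Myog was at 418 to 1276 CPM in sorted myoblasts, above every library of sorted iMPCs, whereas Pax7 was at 349 to 813 CPM in sorted myoblasts, overlapping with sorted iMPCs at their upper end. Mitochondrially encoded genes went in opposite directions, with a median of 1.47 in myoblasts, and 12 of the 13 had a called negative difference. At day 10 of doxycycline with F/R/C, Notch3 was at 214 to 315 CPM and Mcm2 at 65.3 to 129 CPM, above every bulk and below every sorted iMPC library.

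**Figure D4:**
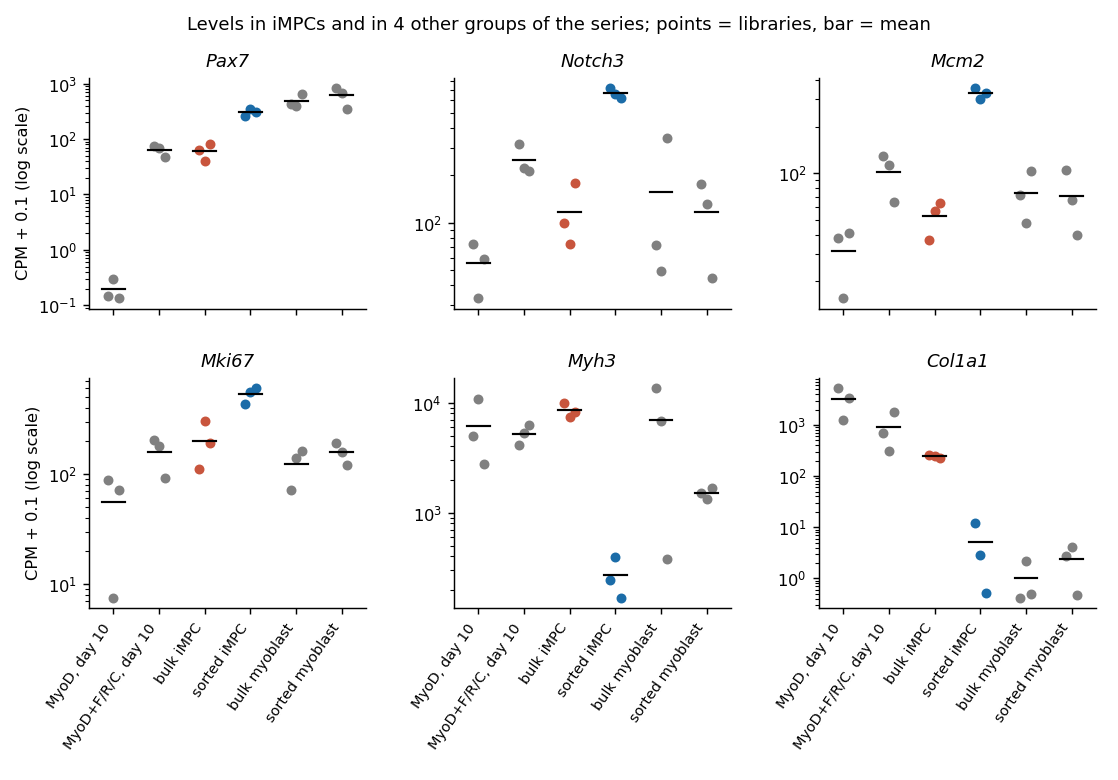
CPM plus 0.1 on a log axis of 6 genes in the libraries (points, with a bar at the mean) of sorted and bulk iMPCs, sorted and bulk myoblasts, and fibroblasts at day 10 of doxycycline alone or with F/R/C. Notch3 and Mcm2 are highest in sorted iMPCs among these groups, and the bulk myoblast points of Myh3 are spread from 376 to 13500 CPM.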

How the data were processed

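Libraries were poly-A selected, stranded and sequenced from a single end, per the labels' protocols. Per the submitters' processing notes, the tools were bcl2fastq 2.19, Trimmomatic 0.36, kallisto 0.44 and edgeR 3.28 with build GRCm38.p6; the transcript release is not given in the sources used here. Per the file headers, the authors deposited estimated counts, TPM and effective length for each transcript. The deposited estimated counts are not normalised, and reads that fit several transcripts are divided between them; the deposited TPM values keep no depth and were not tested. The deposited effective lengths, in bases, gave the fragment-length setting.

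Transcripts were assigned to 35675 genes through GENCODE M21, and each gene's estimated counts were added up and rounded. The annotation matched 121104 of 121843 transcripts. In the 6 iMPC libraries 24707 genes had whole counts within 0.01. CPM values use TMM factors over all 45 libraries. Differences come from edgeR 4.0.16 in R 4.3.3 (TMM, filterByExpr, glmQLFit, glmQLFTest) on the 6 libraries with replicate number as a block, which leaves 2 residual degrees of freedom, and SEs were derived from the F statistic and the fitted difference. DESeq2 1.42.0, other scalings, filters, offsets and left-out replicates were alternatives. In a test on simulated data, with 200 of 15020 genes changed 4-fold, 130 were called, of which 118 were changed ones (59% of the 200) and 12 were not. The simulation held no replicate effect and far fewer changed genes than the 3794 called in the data. Its shares of recovered and false calls therefore need not hold for the data.

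The members and lists were chosen with earlier results of these data known. The text names list genes and the 10 called genes with the largest log2 fold change each way. The latter had a mean of at least 5 CPM in the higher group and the same direction in all 3 pairs. Predicted models, pseudogenes, Y-linked genes and Xist were left out. For the difference between cell types the 5 largest each way were named, with the same kinds of genes left out. There a mean of at least 5 CPM in any of the groups compared was enough, and the direction within pairs was not used. Promoter sequences and motif counts used RefSeq windows of GRCm38.p6. Some list members are not reported here.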

Additional observations from a re-analysis of the deposited data

Results flagged for a closer look

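The sorting effect in iMPCs was compared with that in myoblasts by a test of the difference itself (edgeR's quasi-likelihood test, 12 libraries, 3 per group). It was called for 1679 genes, and the 10 named here had the largest differences by the naming rule. Chodl had a difference of 6.88 on the log2 scale: its mean was 19.4 CPM in sorted and 0.303 CPM in bulk iMPCs, and 0.0652 and 0.126 CPM in sorted and bulk myoblasts. Bmp7 had a difference of 6.63 and means near 0.143 CPM in both myoblast groups. The myoblast levels of Chodl and Bmp7 were near or under the floor of 3 reads, so the sizes of these differences are uncertain. Rasef had a difference of 6.6, from 7.09 CPM in sorted and 2.01 CPM in bulk iMPCs, with 0 reads in sorted myoblasts, so that this fitted difference depends on the prior count. CAAA01147332.1, on an unplaced scaffold, had a difference of 7.20, with bulk myoblasts from 0.175 to 17.6 CPM; it is one of the genes whose levels in the 4 deepest libraries (the bulk iMPCs and bulk myoblast replicate 2) lay wholly outside those of the others. Rps27rt, whose reads are shared with near-identical ribosomal protein genes and whose values are therefore uncertain, had a difference of 11.63.

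Among the negative differences, Msln, which encodes mesothelin, had -8.17: means were 4.62 CPM in sorted and 311 CPM in bulk iMPCs, and 208 CPM in sorted and 47.6 CPM in bulk myoblasts. Cxcl13, a chemokine gene, had a fitted difference of -12.45 that depends on the prior count. It had 0 reads in all sorted iMPC libraries and 217 in bulk ones, at least 44.5-fold lower against a floor of 3 reads over the group. Cyp2d22 had -8.51, with means of 0.327 CPM in sorted and 8.37 CPM in bulk iMPCs against 24.6 and 1.65 CPM in sorted and bulk myoblasts. Ccl7 had -8.48 and Ugt1a7c -7.85, both with means under 1 CPM in each myoblast group.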

How the results depend on the processing

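The count of 3794 calls was within 1.5 times of itself under most alternatives: 4103 with no replicate block, 5459 with the replicate block in all 45 libraries, 3789 with RLE size factors, 4618 with DESeq2, 3772 with effective length as an offset (82.4% of calls kept, 2 changed sign) and 3709 with GC content as an offset (88.6% kept, 0 changed sign; chosen after seeing the data). With genes of whole counts only, which leaves 7733 to test, there were 2072 calls (853 higher, 1219 lower). At a minimum log2 fold change of 2 there were 1780 (308 higher, 1472 lower), and with no minimum 2782 were higher. In all 45 libraries 3543 were lower without and 3731 with the block. Leaving out single replicates gave 0 to 3586 calls, 0 to 1545 higher and 0 to 2041 lower, the zeros without replicate 3, where the smallest adjusted p was 0.0743.

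For the difference from myoblasts, a fit of all 45 libraries gave 4172 calls, the replicate block within cell types 1, DESeq2 3138 and leave-one-out 4 (without bulk iMPC replicate 1) to 2508 (without bulk myoblast replicate 2). In iMPCs, same-numbered libraries had correlations of deviations of 0.016, -0.134 and 0.422, so the numbers are not shown to pair the samples; the block was kept because the comparison is defined by number. Among the genes named, directions reversed for Fn1 among the left-out replicates (-0.080 without replicate 1 to 0.58 without replicate 2; without replicate 1, -0.10 with no block and -0.10 with DESeq2) and for Prrx1 with effective length as an offset (0.13), neither of them called. The causes were not tested. Depth limits genes with few reads in sorted libraries.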
